A study of Mus musculus with 7 samples.

Results

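The genes described are the 6 core components of the renin-angiotensin system: the enzyme gene Ren1, the precursor gene Agt, the converting enzyme gene Ace and the angiotensin II receptor genes Agtr1a, Agtr1b and Agtr2. They were chosen by name from the 35976 gene symbols measured, and all 6 were detected and passed a filter on low values that 16720 genes passed. Pools of whole adrenal glands, all from the inbred mouse strain C57BL/6J, gave 7 RNA sequencing libraries at 4 ages. An embryonic pool of 40 glands at E18.5, shortly before birth, was of undetermined sex. Male and female pools were made at postnatal day 1 (P1, 16 male and 22 female glands), at 2 weeks (6 glands each) and at 12 weeks (4 glands each). No genotype or treatment other than the strain is given for any pool, and all pools share that strain.

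Renin cuts angiotensinogen to angiotensin I, and angiotensin-converting enzyme trims that peptide to angiotensin II. In the zona glomerulosa, the outer layer of the adrenal cortex, angiotensin II acts on type 1 receptors to drive aldosterone synthesis, which keeps sodium in the body. Mice carry Agtr1a and Agtr1b as separate type 1 receptor genes, whereas Agtr2 encodes the type 2 receptor, known for its high levels in fetal tissues and in the adrenal medulla. C57BL/6J mice lack the Ren2 duplicate that some other strains carry.

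The genes lie on separate chromosomes, as annotated in GENCODE vM21 on GRCm38, the same build as mm10. Ren1 spans chr1:133350510-133360325 on the plus strand and Agt spans chr8:124556534-124569706 on the minus strand. Ace spans chr11:105967945-105989964 on the plus strand and overlaps the antisense gene Gm11651, whose reads could not be separated from it if strand was not used. Agtr1a spans chr13:30336441-30382867 on the plus strand and contains the sense intronic gene Gm48161. Agtr1b spans chr3:20314473-20367177 on the minus strand and Agtr2 spans chrX:21484544-21489164 on the plus strand. The receptor genes Agtr1a and Agtr1b shared 33 stretches of 50 bases, 1.13% of those in Agtr1a transcripts and 1.54% of those in Agtr1b transcripts, and neither shared any with Agtr2.

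The 150 bases upstream of the annotated start are shown for the 4 genes with the largest fitted differences between P1 and 2 weeks, so that the letters before each start can be read beside the levels. They were taken from RefSeq on GRCm38.p6, where 5 of the 6 genes had an entry. The RefSeq starts for Ren1 and Agtr2 lie inside the GENCODE genes. The Ren1 window therefore lies wholly inside its GENCODE gene, and the Agtr2 window lies partly inside. The windows are chr1:133350524-133350673 (plus strand) for Ren1, chr8:124569707-124569856 (minus) for Agt, chr3:20367178-20367327 (minus) for Agtr1b and chrX:21484474-21484623 (plus) for Agtr2. Capitals mark exact matches to the TATA box letters TATAAA. Other forms of the TATA box were not searched, so the letters tatataag near the end of the Agtr2 window are not marked.
Ren1: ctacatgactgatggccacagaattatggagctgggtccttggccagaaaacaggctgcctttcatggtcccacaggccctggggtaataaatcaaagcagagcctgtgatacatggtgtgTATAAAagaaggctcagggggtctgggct
Agt: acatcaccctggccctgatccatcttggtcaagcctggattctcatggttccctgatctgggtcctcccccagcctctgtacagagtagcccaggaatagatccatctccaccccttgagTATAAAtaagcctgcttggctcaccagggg
Agtr1b: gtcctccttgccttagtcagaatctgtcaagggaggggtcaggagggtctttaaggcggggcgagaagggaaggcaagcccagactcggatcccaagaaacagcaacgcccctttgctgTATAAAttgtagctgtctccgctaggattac
Agtr2: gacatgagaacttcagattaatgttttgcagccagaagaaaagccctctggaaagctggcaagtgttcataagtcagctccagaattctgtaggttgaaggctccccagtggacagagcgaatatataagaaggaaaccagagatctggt
TATAAA, searched on both strands, began 29 bases before the start in Ren1, 30 in Agt and 31 in Agtr1b, and a match on the other strand lay 31 bases before 1 of the Ace starts. Of 32851 windows of that length, 7.57% held it. The letters AAGGTCA, a half-site for the steroidogenic factor SF-1, and TGACGTCA, a cyclic AMP response element, were in none of the members' windows, against 2.31% and 1.36% of all windows. These matches describe letters and not binding.

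Total reads in genes ranged from 15184210 to 23551289 per library, and all libraries carry the same run and lane in their labels. Values are normalized counts, which are whole reads divided by 1 size factor per library. Each group was 1 pooled library with no replicate error, so p-values measure only the spread left after age and sex were fitted. Markers of the adrenal cortex and of chromaffin cells, the catecholamine cells of the medulla, were detected in all 7 libraries. Summed markers of kidney, liver, skeletal muscle and exocrine pancreas were higher in the 3 early libraries than in the 4 later ones. Kidney markers summed to 1536 normalized counts before birth, to 10729 and 2889 in the male and female P1 libraries and to 54.5 to 101 later, with 3 to 7 of the 10 genes at 0 reads in the later libraries. The P1 female library also held Y-linked transcripts, summing to 1273 normalized counts against 6135 in P1 male and 2.26 to 4.41 in the older female libraries. Where fitted differences between ages rest on that library, the fitted difference of Ren1 and most counts of genes passing are given with and without it. Without it the genes called from P1 to 2 weeks numbered 28 in limma against 2737 with all 6 postnatal libraries, and without P1 male 2.

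Renin transcripts were abundant before birth and nearly gone by 2 weeks. Of Ren1, which encodes the enzyme that starts the cascade, the E18.5 library held 15068 normalized counts, the P1 male library 3478 and the P1 female library 398. It had 8.90 and 24.7 in the 2-week male and female libraries and 8.39 and 23.8 in those of 12 weeks, the last 4 values resting on 6 to 28 reads. The 3 early libraries were all above the 4 later ones. E18.5 exceeded P1 male 4.33-fold (95% counting interval 4.19 to 4.48), and P1 male exceeded P1 female 8.73-fold (7.84 to 9.75). In the order of levels, the 2-week and 12-week females did not differ beyond counting error, with a ratio of 1.04 (0.570 to 1.93). The 2-week and 12-week males likewise had a ratio of 1.06 (0.349 to 3.55).

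The precursor transcript peaked later than renin and went on falling after 2 weeks. Agt, which encodes angiotensinogen, had a level of 814 normalized counts before birth (E18.5), and 1214 and 1831 in the male and female P1 libraries. It had 215 and 289 in the 2-week male and female libraries and 65.7 and 82.6 in those of 12 weeks. Each age lay apart from the next, with no overlap between the sexes' values at 1 age and those at another, and all neighbours in the order differed beyond counting error except the 12-week libraries (1.26-fold, 0.859 to 1.85). Per kilobase of exon, Ren1 exceeded Agt 21.1-fold at E18.5 and 3.27-fold in P1 male, and the ratio was 0.248 in P1 female and 0.0472 to 0.328 in the older libraries.

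**Figure D1:**
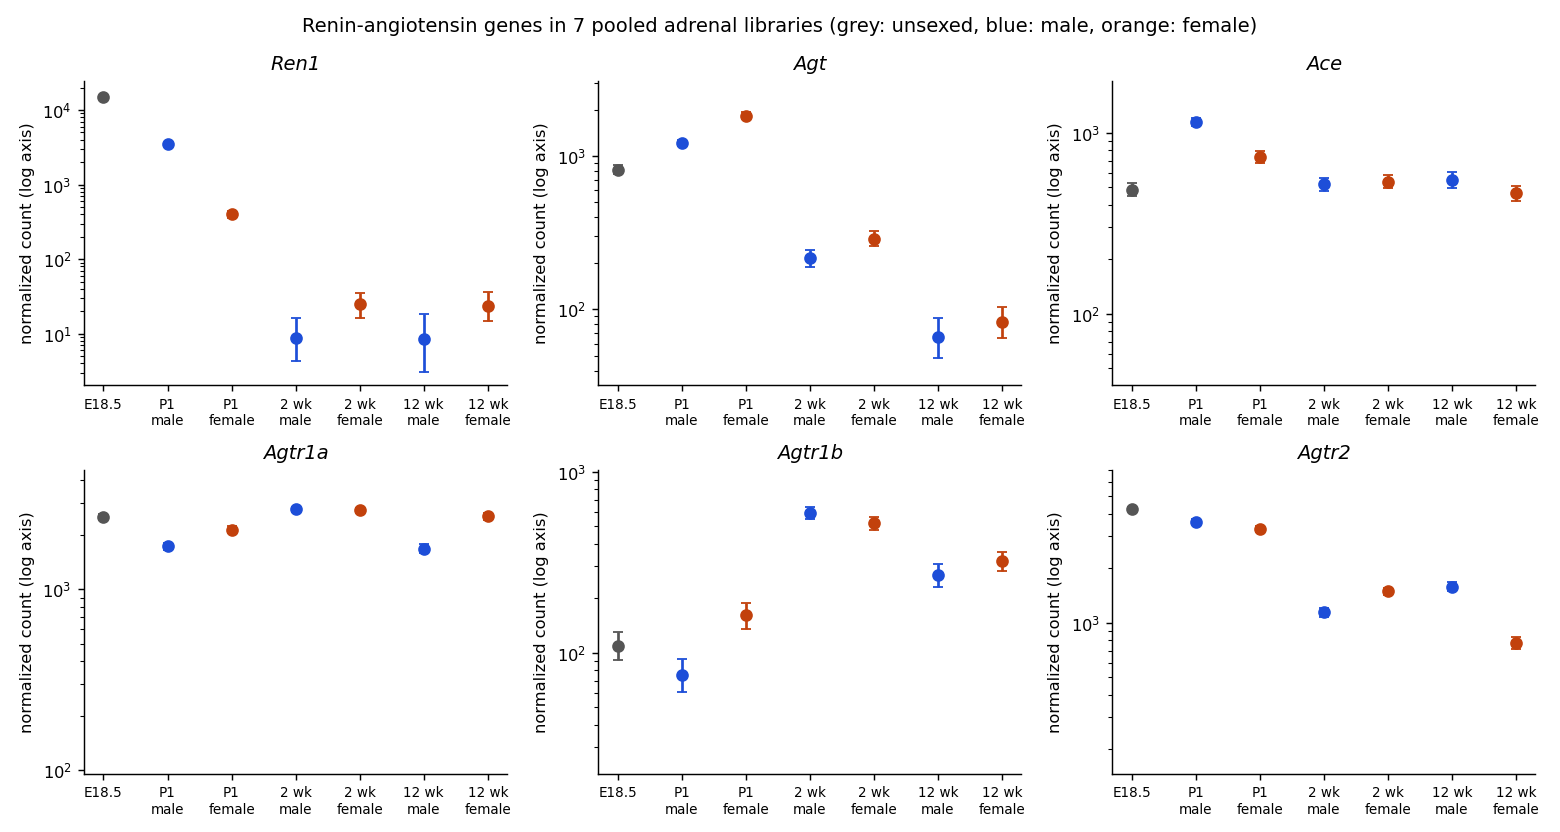
Normalized counts on a log axis for each of the 6 genes in the 7 pooled libraries, with 95% counting intervals (grey E18.5, blue male, orange female). Ren1 runs from 15068 at E18.5 to 8.39 in 12-week males, whereas Agtr1a stays between 1676 and 2764.

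The converting enzyme varied least of the genes upstream of the receptors. Ace, which makes angiotensin II, had a level of 486 normalized counts before birth (E18.5), and 1149 and 737 in the male and female P1 libraries. The 2-week libraries had 521 (male) and 537 (female), and the 12-week libraries 548 (male) and 463 (female). Both P1 libraries were above all others, and the 5 other libraries, from 463 to 548, did not differ between neighbours in the order beyond counting error.

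The receptor genes had different patterns over age. Agtr1a, the main type 1 receptor of rodents, had a level of 2499 normalized counts before birth (E18.5), 1727 and 2128 in the male and female P1 libraries, 2764 and 2728 in the 2-week male and female libraries, and 1676 and 2527 at 12 weeks. The 2-week libraries were the highest, and the ages of P1 and 12 weeks overlapped. Agtr1b, the other type 1 receptor, had 109 before birth, 75.3 and 161 in the male and female P1 libraries, then 596 and 519 in the 2-week male and female libraries and 268 and 320 at 12 weeks. All 4 later libraries were above the 3 early ones, and the 2-week pair was the highest. Agtr2 had 4257 before birth, 3611 and 3296 in the male and female P1 libraries, then 1139 and 1489 in the 2-week male and female libraries and 1583 and 767 at 12 weeks. The 3 early libraries were all above the later 4, while the values of 2 and 12 weeks overlapped.

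Per kilobase of exon, the mix of receptor transcripts differed between the early and the later libraries. Agtr2 made up 57.5% of the receptor sum before birth, 62.4% and 54.2% in the male and female P1 libraries, and 17.9 to 39.6% in the older libraries. Agtr1a made up 35.6 to 41.7% in the early libraries and 50.03 to 70.5% later. Agtr1b made up 2.01 to 4.10% in the early libraries and 10.4 to 17.2% later. The ratio of Agtr1a to Agtr1b per kilobase was 17.6 before birth, 17.7 and 10.2 in the male and female P1 libraries, and 3.57 to 6.08 afterwards. These shares were not tested and depend on the exon lengths of GENCODE vM21.

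**Figure D2:**
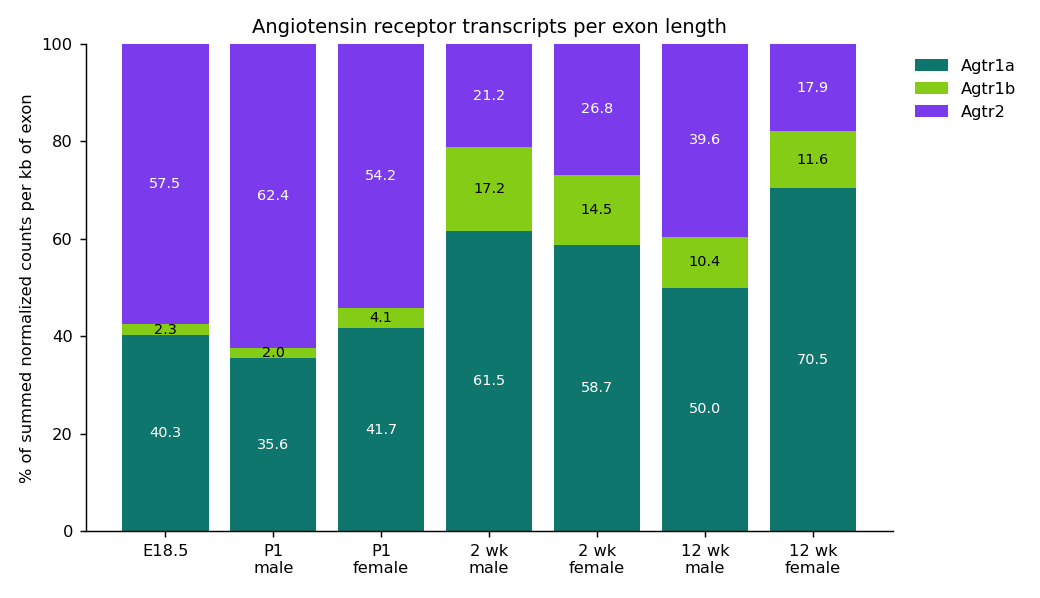
Share of each receptor gene in the summed normalized counts per kilobase of exon, in percent, for the 7 libraries. Agtr2 is the largest share in the 3 early libraries and Agtr1a the largest in the 4 later ones.

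Between E18.5 and P1 there was no test, since each side had 1 library, and both differences share the E18.5 library. Of the 6 genes 1, Ren1, was at least 2-fold apart in the same direction from both P1 libraries, against 5.15% of all genes (2.24% lower). Its log2 difference was -2.11 to P1 male and -5.24 to P1 female, the latter the 4th lowest of 16720 genes. Agt was higher at P1 by 0.58 (male) and 1.17 (female) on the log2 scale, and Ace by 1.24 and 0.60. Agtr1a differed by -0.53 and -0.23 and Agtr2 by -0.24 and -0.37. Agtr1b went in opposite directions, -0.53 to P1 male and 0.56 to P1 female. Beside the Ren1 values, Akr1b7, an aldose reductase family gene of renin cells and of the adrenal cortex, had a level of 106039 before birth, and 44187 and 6535 in the male and female P1 libraries. Over all 7 libraries the Pearson r of its log2 values with those of Ren1 was 0.73, at rank 1516 of 12249 genes. Kidney markers did not follow the order of Ren1 over the 3 early libraries, since their sum was lowest of the 3 at E18.5 and highest in P1 male. Over these 3 libraries the sums of cortex markers followed the order of Ren1, with 611028 at E18.5 and 425462 and 256744 in the male and female P1 libraries. Over all 7 libraries they did not. The cortex sums were 529812 and 533741 in the 2-week male and female libraries. They were 856376 and 1133650 in those of 12 weeks, where Ren1 had 8.39 and 23.8. All 8 cortex markers were lower in both P1 libraries than at E18.5. Between the P1 libraries 7 of the 8 were higher in the male, 3 of them at least 2-fold. The other, Hsd3b1, had 68986 in the male and 82840 in the female P1 library. Scarb1, a lipoprotein receptor of the cortex list, was singled out after its values were seen. It had 73112 at E18.5 and 48325 and 8997 in the male and female P1 libraries, the last the lowest of the 7 libraries. The part of either marker group in the Ren1 levels was not tested.

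From P1 to 2 weeks, Ren1, Agt, Ace and Agtr2 fell and Agtr1b rose. In limma, with adjustment over all genes, 5 of the 6 genes passed, against 16.4% of all genes tested (5.89% higher and 10.5% lower), and the median log2 difference was -1.10 against 0.00 over all genes. Ren1 fell by 6.21 ± 1.06 (SE) on the log2 scale (limma adjusted p = 0.0130), and Agt fell by 2.57 ± 0.185 (adjusted p = 0.00162). Agtr1b rose by 2.32 ± 0.315 (adjusted p = 0.00693). Agtr2 fell by 1.40 ± 0.314 (adjusted p = 0.0296) and Ace fell by 0.80 ± 0.202 (adjusted p = 0.0428). Agtr1a had a difference of 0.52 ± 0.180 that did not pass (adjusted p = 0.102). The directions were the same in both sexes for all 6 genes. Leaving out P1 female gave a fitted difference of -8.46 for Ren1. Without P1 male 0 genes passed in limma (4 of 6 at an unadjusted p under 0.05), without P1 female 1 (Ren1) and without 2-week male 1 (Agt), while the fitted differences of the 5 genes kept their sign and that of Ren1 was -3.95 without P1 male. Ace also lost its call without 2-week female (adjusted p = 0.108), and Agtr1a passed without either 12-week library (0.0301 and 0.0302).

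Several marker groups moved with these genes between P1 and 2 weeks. All 10 kidney markers fell, as did all 8 liver markers, whose sum went from 461834 (P1 male) and 304848 (P1 female) to 16955 and 41802 at 2 weeks and 8044 and 6208 at 12 weeks. Liver is the main source of angiotensinogen, and among the early libraries Agt was highest in P1 female, where the liver sum was lowest. The 8 liver markers did not all follow that sum. At P1, 7 of them had the larger value in the male library and 1, Apoa1, in the female. Apoa1, singled out after its values were seen, had the order of Agt over the early libraries. Its values were 8922 at E18.5 and 12957 and 20508 in the male and female P1 libraries. Of 9 mesenchyme and capsule markers 7 fell, with a sum of 195881 and 219553 at P1 and 53884 and 59385 at 2 weeks. Fibroblasts of fetal tissue are known to carry Agtr2, and so is the adrenal medulla. Chromaffin markers, of the medulla, summed to 47645 and 92749 in the male and female P1 libraries and to 125044 and 107326 at 2 weeks. Of these 8 markers 1 rose and 0 fell in limma. Of 8 smooth muscle and pericyte markers, the lineage of renin cells, 4 fell and 0 rose from P1 to 2 weeks in limma, the lowest being Cnn1 (fell by 2.83, adjusted p = 0.0122), and from P1 to 12 weeks 6 fell. Adipocyte markers rose, 7 of 8, from sums of 2915 and 3081 to 44689 and 49465. Ace is known from endothelium, and 0 of 8 endothelial markers passed in limma, edgeR or DESeq2 (1 at an unadjusted p under 0.05 in each). The order of Ace over the early libraries, P1 male above P1 female above E18.5, was shared by the sums of several marker groups. Kidney sums had it, as did exocrine pancreas sums, which were 27.7 at E18.5 and 5705 and 71.7 in the male and female P1 libraries. Endothelial sums had it as well, with 20295 at E18.5 and 22261 and 21344 in the male and female P1 libraries. The smooth muscle and pericyte sums, in the same sequence of libraries, were 10073, 16601 and 12480. Without P1 female 1 kidney, 2 liver, 0 mesenchyme, 0 smooth muscle and 5 adipocyte markers passed from P1 to 2 weeks in limma (10, 8, 8, 3 and 8 at an unadjusted p under 0.05). Without P1 male only 2 adipocyte markers of these lists passed. In pooled whole glands, fewer cells of a type and less RNA per cell cannot be told apart, and the part of these groups in the members' differences was not tested.

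**Figure D3:**
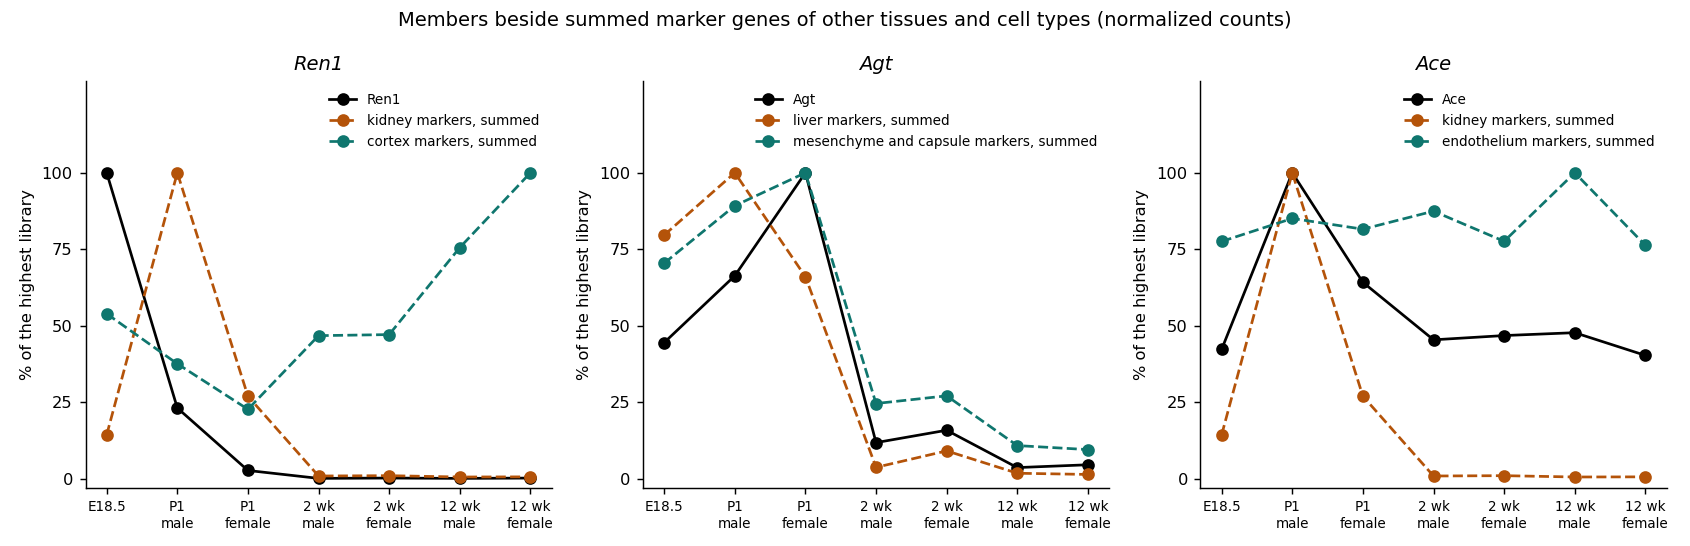
Ren1, Agt and Ace (black) beside summed marker genes (dashed), each as percent of its highest library, in the 7 libraries. Ren1 is highest at E18.5 whereas the kidney sum is highest in P1 male, and Agt is highest in P1 female whereas the liver sum is highest in P1 male. Of the 8 genes in the liver sum, Apoa1 is highest in P1 female.

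From 2 to 12 weeks only Agt of the 6 genes passed in limma, against 15.3% of all genes (5.4% higher and 9.89% lower). It fell by 1.75 ± 0.185 on the log2 scale (adjusted p = 0.00288), by 3.28-fold in males and 3.50-fold in females. The call was lost without 2-week female (adjusted p = 0.0521, limma), and Agtr2 also passed without 12-week male (log2 difference -0.83, adjusted p = 0.02005). Agtr1b had a difference of -0.92 (adjusted p = 0.0975), Agtr1a -0.42 (0.166), Agtr2 -0.24 (0.644), Ace -0.07 (0.841) and Ren1 -0.06 (0.976), none of which passed in limma.

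From P1 to 12 weeks, a comparison that shares the P1 libraries with the first, 5 of 6 genes passed in limma, against 41.2% of all genes (17.6% higher and 23.5% lower). The fitted log2 difference was -6.27 for Ren1 (adjusted p = 0.00464), -4.32 for Agt (8.32e-05), -0.87 for Ace (0.0155) and -1.65 for Agtr2 (0.00750), and all 4 fell. Agtr1b rose by 1.40 (adjusted p = 0.0136), and Agtr1a had a difference of 0.10 (0.673). Without P1 male 2 genes passed in limma, Ren1 and Agt, and without P1 female 4, Agtr2 having an adjusted p of 0.110. The fitted difference of Ren1 was -8.53 without P1 female and -4.02 without P1 male. That of Agtr1b was 0.87 without P1 male and that of Agtr2 -1.06 without 12-week female.

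**Figure D4:**
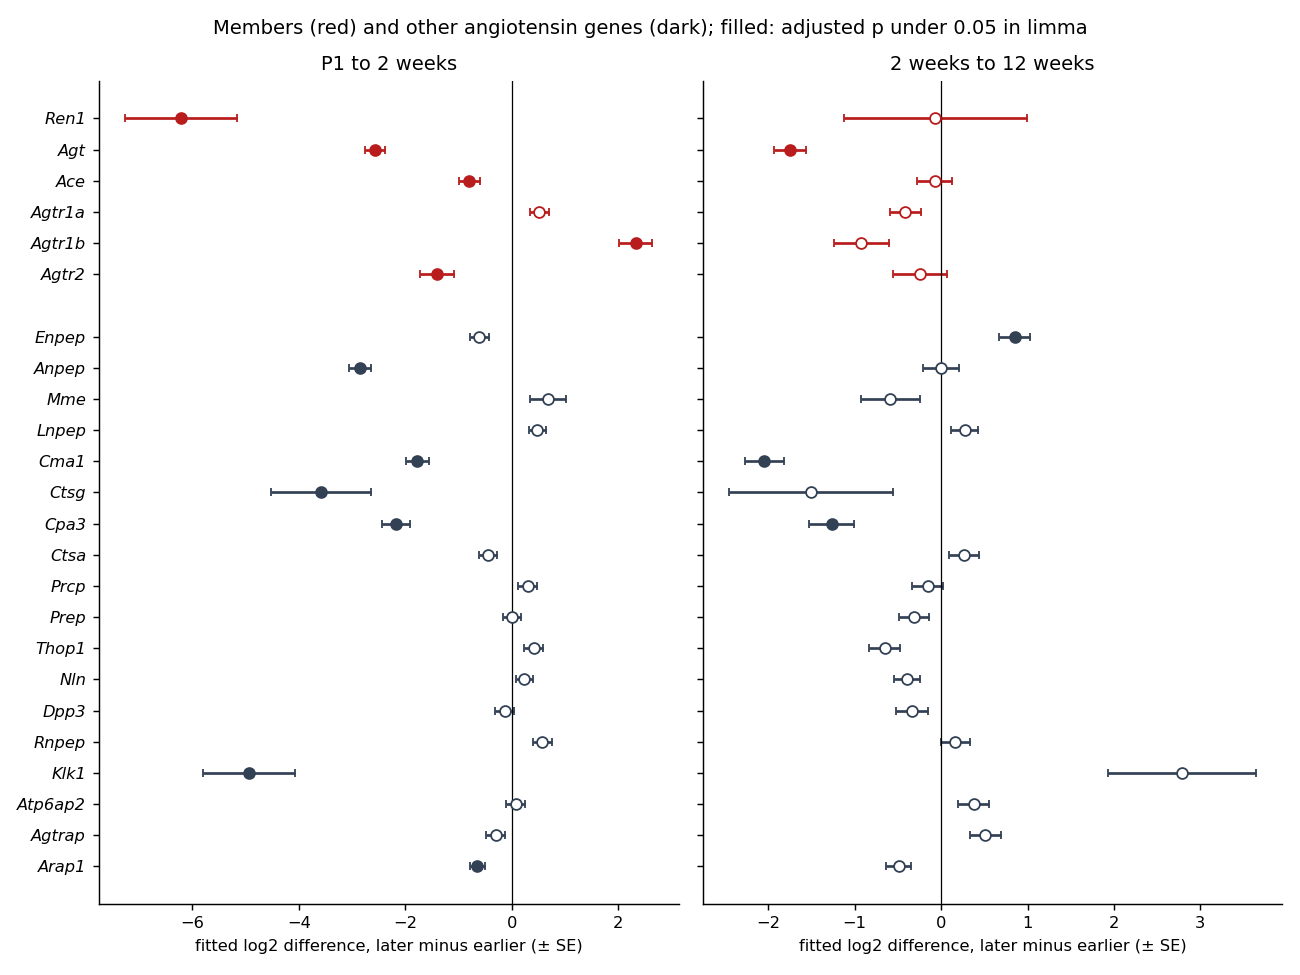
Fitted log2 differences (later minus earlier, bars SE, limma) of the 6 genes in red and 18 other angiotensin genes in dark, for P1 to 2 weeks and 2 to 12 weeks; filled points have an adjusted p under 0.05. Ren1 lies at -6.21 in the first step and -0.06 in the second, and Agtr1b at 2.32 and -0.92.

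Between the sexes 0 of the 6 genes passed in limma, against 0.00598% of all genes (1 gene), and all 6 had an adjusted p of 0.999. At an unadjusted p under 0.05 there was 1, Agt, lower in males at all 3 ages by a mean of 0.45 ± 0.151 on the log2 scale. Its male minus female difference was -0.38 ± 0.192 without P1 female (adjusted p = 0.951, limma). In edgeR and in DESeq2 0 of the 6 passed as well. The limma fit also called 0 of 4 Y-linked genes, whose median log2 difference between the sexes was 7.73. Differences that did not pass in limma thus cannot show that the sexes were alike. Between single pools, 5 of 18 differences were at least 2-fold, against shares over all genes of 6.78% (P1), 4.24% (2 weeks) and 8.83% (12 weeks), and these have no test. Ren1 was 8.73-fold higher in males at P1, and in females 2.78-fold (1.31 to 6.41) higher at 2 weeks and 2.83-fold (1.11 to 8.58) higher at 12 weeks. Agtr1b was 2.14-fold (1.64 to 2.81) higher in females at P1. Agtr2, an X-linked gene, was 2.06-fold (1.87 to 2.27) higher in males at 12 weeks. At P1 all 10 kidney markers were also higher in the male library, 9 of them at least 2-fold (median log2 difference 2.50). Of 8 cortex markers 7 were higher there as well. The 6 pancreas markers past the filter reached it through their P1 male values, so their direction at P1 was fixed by the filter. The part of these marker groups in the Ren1 difference was not tested. Beside the Agt difference, all 8 liver and all 8 skeletal muscle markers were at least 2-fold lower in males at 2 weeks. At P1 all 8 muscle markers were lower in the male library, but 7 of 8 liver markers were higher. At 12 weeks 5 of 8 muscle markers were lower and 6 of 8 liver markers higher. The muscle sums had the order of Agt over the 7 libraries. The part of these markers in the Agt difference was not tested. The P1 values rest on the female library that held Y-linked transcripts, and the others do not.

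**Figure D5:**
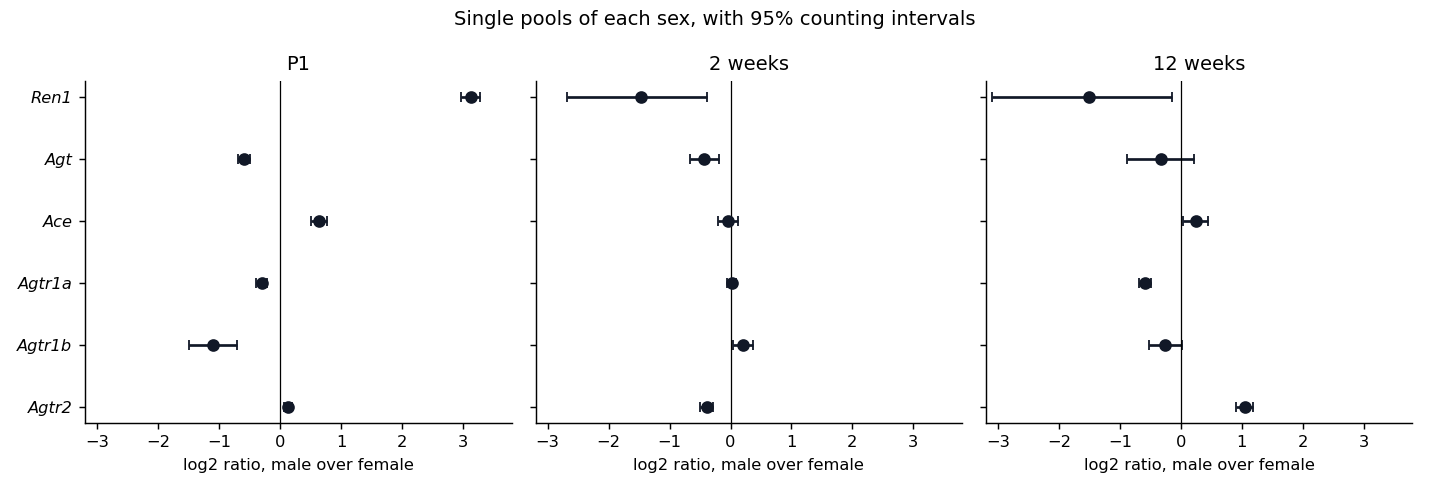
Log2 ratio of the male over the female pool at P1, 2 weeks and 12 weeks for the 6 genes, with 95% counting intervals. Ren1 lies to the right of 0 at P1 and to the left at 2 and 12 weeks.

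Enzymes that cut or clear angiotensin peptides, and related receptors, were followed in a list of 21 genes, of which 19 passed the filter on low values. Mas1 and Mrgprd, receptors for angiotensin fragments, did not, with at most 2.26 and 3.31 normalized counts in a library. From P1 to 2 weeks 6 fell and 0 rose in limma (31.6%, against 16.4% of all genes called and 10.5% lower), with a median log2 difference of -0.30 against 0.00 over all genes. Anpep, an aminopeptidase that shortens angiotensin III, fell by 2.86 (adjusted p = 0.00162), from 2534 and 1799 normalized counts in the P1 male and female libraries to 286 and 303. Cma1 and Cpa3, proteases of mast cells, fell by 1.77 (0.00556) and 2.18 (0.00503), and both belong to the mast cell marker list, whose sum went from 2105 and 2222 at P1 to 793 and 724. Klk1, a kallikrein of kidney and gland ducts, went from 151 and 21.0 normalized counts to 1 read in each 2-week library. Ctsg, cathepsin G, and Arap1 also fell, with adjusted p of 0.0484 and 0.0289 in limma. Without P1 female 0 of the 19 passed in limma (11 at an unadjusted p under 0.05), without P1 male 0 (7 at an unadjusted p under 0.05), and without either 2-week library 1, Anpep, while 10 passed without either 12-week library.

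From 2 to 12 weeks 3 of these 19 genes fell and 1 rose in limma, 21.1% against 15.3% of all genes called. The mast cell proteases fell further. Cma1 fell by 2.04 (adjusted p = 0.00313) and Cpa3 by 1.26 (0.0243). Enpep, aminopeptidase A, which makes angiotensin III, rose by 0.85 (adjusted p = 0.0259), with 575 and 610 normalized counts at 2 weeks and 1219 and 936 at 12 weeks. These 3 calls were lost without either 2-week library, and those of Cpa3 and Enpep also without either P1 library. From P1 to 12 weeks 6 fell and 2 rose, which at 42.1% of the list was near the 41.2% of all genes called, the latter being Lnpep, the angiotensin IV binding aminopeptidase (0.76, adjusted p = 0.00966), and Rnpep (0.74, 0.0151). Without P1 female 9 passed (8 lower), Rnpep not among them, and without P1 male 5, all lower.

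Downstream of the type 1 receptor, 3 of 15 signalling genes (Rgs2, Plcb1 and Itpr2) rose and 2 (Itpr3 and Prkca) fell from P1 to 2 weeks in limma, 33.3% against 16.4% of all genes. The highest was Rgs2, a brake on Gq signalling, which rose by 1.36 (adjusted p = 0.00848), and the lowest was Itpr3, a calcium release channel, which fell by 0.89 (0.0410). From 2 to 12 weeks Plcb1, a phospholipase C, rose by 1.03 (adjusted p = 0.00851) and Prkca, a protein kinase C, fell by 0.82 (0.0347). The list's 13.3% called in that step was near the 15.3% of all genes. From P1 to 12 weeks 6 rose and 2 (Itpr3 and Prkca) fell, 53.3% against 41.2%. Without P1 female 0 of the 15 passed from P1 to 2 weeks in limma (7 at an unadjusted p under 0.05) and without P1 male 0 (5), and from P1 to 12 weeks 3 and 4 passed. Without 2-week male 0 passed in either step next to 2 weeks, and without 2-week female 2 and 0.

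Of 15 aldosterone genes 6 rose and 1 fell from P1 to 2 weeks in limma, 46.7% against 16.4% of all genes. Hsd3b6, a steroid dehydrogenase of the zona glomerulosa, rose by 3.28 (adjusted p = 0.00471) and Scnn1a, a sodium channel subunit, fell by 2.12 (0.0201). Cyp11b2, aldosterone synthase, singled out after its values were seen, had 818 and 1913 normalized counts in the P1 male and female libraries and 4025 and 3176 at 2 weeks. It rose by 1.51 (adjusted p = 0.0365, limma). Its other levels were 2323 at E18.5 and 2525 and 2219 in the 12-week male and female libraries. From 2 to 12 weeks 0 of the 15 passed in limma (1 at an unadjusted p under 0.05) and in edgeR, and 1 in DESeq2. From P1 to 12 weeks 5 rose (Hsd3b6, Nr3c2, Atp2b3, Kcnk9 and Kcnk3) and 2 fell (Scnn1a and Hsd11b2), 46.7% against 41.2%. From P1 to 2 weeks 0 of the 15 passed in limma without P1 female and 0 without P1 male (10 at an unadjusted p under 0.05 in each), 0 without 2-week male and 3 without 2-week female, and 13 without either 12-week library. In the comparison of P1 with 12 weeks 7 passed without P1 female, Cyp11b2 among them and Kcnk3 and Hsd11b2 not, and 4 without P1 male.

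Among 14 genes known to act in renin cells, 2 fell and 0 rose from P1 to 2 weeks in limma, 14.3%, near the 16.4% of all genes called and the 10.5% lower. They were Foxd1, a stromal transcription factor (fell by 2.73, adjusted p = 0.00758), and Gja5, connexin 40 (fell by 1.74, 0.0306). Adcy6, an adenylyl cyclase, fell by 0.89 from 2 to 12 weeks (adjusted p = 0.0174), the 1 call of the list in that step (7.14%, against 15.3% of all genes). From P1 to 12 weeks 7 of the 14 fell and 0 rose, against 41.2% of all genes called and 23.5% lower, Foxd1 by 2.32 (0.00442). Without P1 female 0 passed from P1 to 2 weeks in limma (7 at an unadjusted p under 0.05) and 1 from P1 to 12 weeks, Nr1h3, which rose. Without P1 male 0 (2 at an unadjusted p under 0.05) and 4 passed in these comparisons. Without either 2-week library 0 passed from P1 to 2 weeks or from 2 to 12 weeks, and 3 from P1 to 12 weeks, where 4 passed without 12-week female. Without either 12-week library 6 passed from P1 to 2 weeks. Akr1b7 did not pass between P1 and 2 weeks, with a difference of -1.05 (adjusted p = 0.257), and its 12-week levels were 20940 in males and 14809 in females.

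The genes whose log2 values tracked each member most closely over the 7 libraries, which share the same ages and pools, are given as a description. For Ren1 they included Ipo5 (r = 0.987) and Slit2 (0.985), and 42 of 12249 genes reached an r of 0.95. Since r ignores the size of a change, these genes need not share the extent of the Ren1 fall. Ipo5 ran from 3153 to 4681 normalized counts and Slit2 from 603 to 1539, against 8.39 to 15068 for Ren1. For Agt they were Wisp1 (0.998), Samd14 (0.997) and Rhobtb1 (0.997), and 583 genes reached 0.95. Agtr1b was tracked by Mgme1 (0.990), Mlxipl (0.988) and Ebna1bp2 (0.987), and Agtr2 by Slc37a3 (0.989), Eef2k (0.983) and the globin gene Hbb-bs (0.982). Agtr1a was tracked by Nlgn3 (0.987), Enoph1 (0.970) and Mtfmt (0.958). Ace was tracked by Rcan1 (0.986), Try5 (0.983) and Rpl8 (0.963), and Try5, a pancreatic trypsin, was listed at 0 in 5 libraries and at 759 normalized counts in P1 male, where exocrine pancreas markers summed to 5705. Without P1 female, r for the genes named here was between 0.957 (Mtfmt) and 0.998 (Rhobtb1).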

How the data were processed

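Whole adrenal RNA was sequenced, 1 pooled library per group. The authors deposited 1 table of normalized counts; per the submitters' processing notes, tools included CASAVA 1.8.2, HISAT2 2.1.0, HTSeq 0.9.1 and DESeq2 2.11.40.6 on mm10. The annotation and the use of strand are not given in the sources used here. The deposited signal was whole reads divided by 1 size factor per library: 100.0% of values came out whole within 0.001 reads. The 16720 genes whose mean reached 10 normalized counts entered limma 3.58.1 (R 4.3.3) on log2(normalized count + 1), which understates changes of low genes, with age and sex over the 6 postnatal libraries (2 residual degrees of freedom, eBayes with a trend). Tests were two-sided with Benjamini-Hochberg adjustment over all genes and a threshold of 0.05. edgeR 4.0.16 and DESeq2 1.42.0 on the recovered reads were alternatives; edgeR called 2795 genes from P1 to 2 weeks, 2396 from 2 to 12 weeks and 6754 from P1 to 12 weeks. Ratios of single libraries carry 95% exact binomial intervals, which cover counting error alone, as PCR copies could not be told from molecules. Exon lengths are from GENCODE vM21. The fit was run on simulated counts with additive changes and the same relative spread for all genes. That cannot show how the fit behaves with the spread between these pools. The members and gene lists were chosen with earlier results of these data known. Named are all members, any of the peptidase list past the filter, of other lists the 3 most abundant genes and the highest and lowest passing the test, and the 3 genes with the highest Pearson r per member (mean of at least 100 normalized counts); some genes that this rule names are not reported here.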

Additional observations from a re-analysis of the deposited data

Results flagged for a closer look

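Opposite directions in single libraries, each beyond counting error, are listed here as log2 differences; none of these reversals was tested, since each group had 1 library. Male minus female, the 3 ages in order gave 3.12, -1.38 and -1.40 for Ren1. Agtr1b was -1.09 at P1 and 0.20 at 2 weeks. The 3 ages in order gave 0.13, -0.39 and 1.04 for Agtr2. From E18.5, Agtr1b was -0.53 to P1 male and 0.56 to P1 female. From 2 to 12 weeks, Agtr2 was 0.47 in males and -0.96 in females.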

How the results depend on the processing

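No paired analysis was possible because the labels carry no replicate numbers and each group has 1 library. Of 99 refits of called values under settings other than leaving out a library, 84 kept the call, 15 lost it and 0 changed sign. From P1 to 2 weeks the count of 5 members became 0 without a filter on low genes, where no gene of 27254 passed in limma (6431 at an unadjusted p under 0.05), and 2 without a trend in the variance. Leaving out a library gave 0 to 6. Ace lost its call there with a pseudocount of 0.1 (adjusted p = 0.0506) and with equal totals (0.0534). From 2 to 12 weeks the count of 1 became 0 without a filter, and leaving out a library gave 0 to 2. From P1 to 12 weeks the count of 5 became 1 without a filter, and leaving out a library gave 2 to 5. At a 1.5-fold limit, 2 members instead of 1 differed between E18.5 and both P1 libraries, and 8 differences between the sexes instead of 5.

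Equal totals moved the median of all genes to -0.20 from 2 to 12 weeks and to -0.15 from P1 to 12 weeks, and relative to those medians Agt was at -1.71 and -4.29. Equal totals turned the P1 to 12 weeks difference of Agtr1a to -0.017, which relative to the median was 0.13, and DESeq2 turned the sex difference of Ren1 to -0.14. Leaving out a library gave, for values that changed sign, these ranges: from 2 to 12 weeks Ren1 -1.20 to 1.07, Ace -0.31 to 0.17 and Agtr2 -0.83 to 0.35; from P1 to 12 weeks Agtr1a -0.12 to 0.33; between the sexes Ren1 -1.39 to 0.87 and Agtr2 -0.13 to 0.59. These differences did not pass in limma with all libraries. The causes were not tested. A fit without 1 library keeps 1 residual degree of freedom and takes the lone library to vary like the others. Ren1 after P1 rests on 6 to 28 reads, which limits its ratios there. Leaving out a library for the gene lists was chosen after seeing the data, and its counts stand beside each list.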
